A study of Homo sapiens with 6 samples.

Results

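The 32 genes described here encode enzymes and carriers of the tricarboxylic acid (TCA) cycle and of glutamate metabolism, and their chromatin was followed in human naive embryonic stem (nES) cells given α-ketoglutarate (αKG). Members were chosen by name, and their ATAC-seq peaks were found by position. In ATAC-seq a transposase cuts open chromatin, so that more reads in a peak stand for more accessible DNA. A peak was assigned to a gene as a promoter peak when its centre lay within 1 kb of any GENCODE transcript start of that gene, and as a gene-body peak when its centre lay elsewhere inside the gene. This gave 103 promoter peaks and 68 gene-body peaks, 171 of the 171517 peaks in the table. Each of the 32 genes had at least 1 promoter peak, with a median of 3 and a maximum of 7 per gene, and 15 genes had gene-body peaks. The promoter peak with the highest mean count of a gene is called its main promoter peak.

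The cells were human embryonic stem cells of the established line H9, kept naive in tt2iLGö medium with the kinase inhibitors PD0325901, CHIR99021 and Gö 6983, with LIF, and under low oxygen. They were grown on mouse feeder cells, taken off the feeders by plating on gelatin, and moved to laminin. The 3 dm-αKG libraries (n = 3) came from cells given 4 mM dimethyl-αKG, a form of αKG that enters cells, for 24 h, and the 3 control libraries (n = 3) from cells without it. The labels call the controls DMSO, whereas the text of the protocol calls them 0 mM, so whether both groups held the same solvent is not given in the sources used here. All libraries came from 1 cell line in an experiment done once.

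The TCA cycle burns acetyl-CoA in the mitochondrion. Pyruvate enters through pyruvate dehydrogenase or pyruvate carboxylase, citrate is turned into αKG by aconitase and isocitrate dehydrogenases, and αKG is oxidized to succinyl-CoA and on to oxaloacetate. Glutamate joins the cycle at αKG, through glutamate dehydrogenase or through transaminases, which pass its amino group to another acid. αKG is also a substrate of enzymes that remove methyl groups from histones and DNA, and acetyl-CoA is the donor for histone acetylation, which links these genes to chromatin. The comparison asked whether an added supply of αKG went with a change in accessibility at the genes that make and use it.

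Main promoter peaks of the 32 genes were, for the most part, strongly accessible in control cells. Levels are given as normalized counts per 100 bp of peak, where a normalized count is a read count brought to a common library size. The median over the 32 genes was 207 per 100 bp, against 137 over the 16275 protein-coding genes that had a promoter peak. A main promoter peak shared by several genes enters that median for each of them, and the distinct peaks number 14542. GPT2, the mitochondrial alanine transaminase, had the highest level at 522 ± 36.8 (SD, n = 3), followed by PC, pyruvate carboxylase, at 452 ± 26.4 (SD, n = 3). OGDHL, a relative of the αKG dehydrogenase subunit OGDH, had the lowest level at 33.3 ± 1.92 (SD, n = 3), whereas OGDH itself stood at 397 ± 11.3 (SD, n = 3). In all, 25 of the 32 lay above the middle of the protein-coding genes and 8 lay above the 90th percentile. The control list and the dm-αKG list of reproducible peaks both held all 32 main promoter peaks. Their fold enrichment over background, a value of the authors' peak caller, had a median of 18.1 in the control list and 17.6 in the dm-αKG list.

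**Figure D1:**
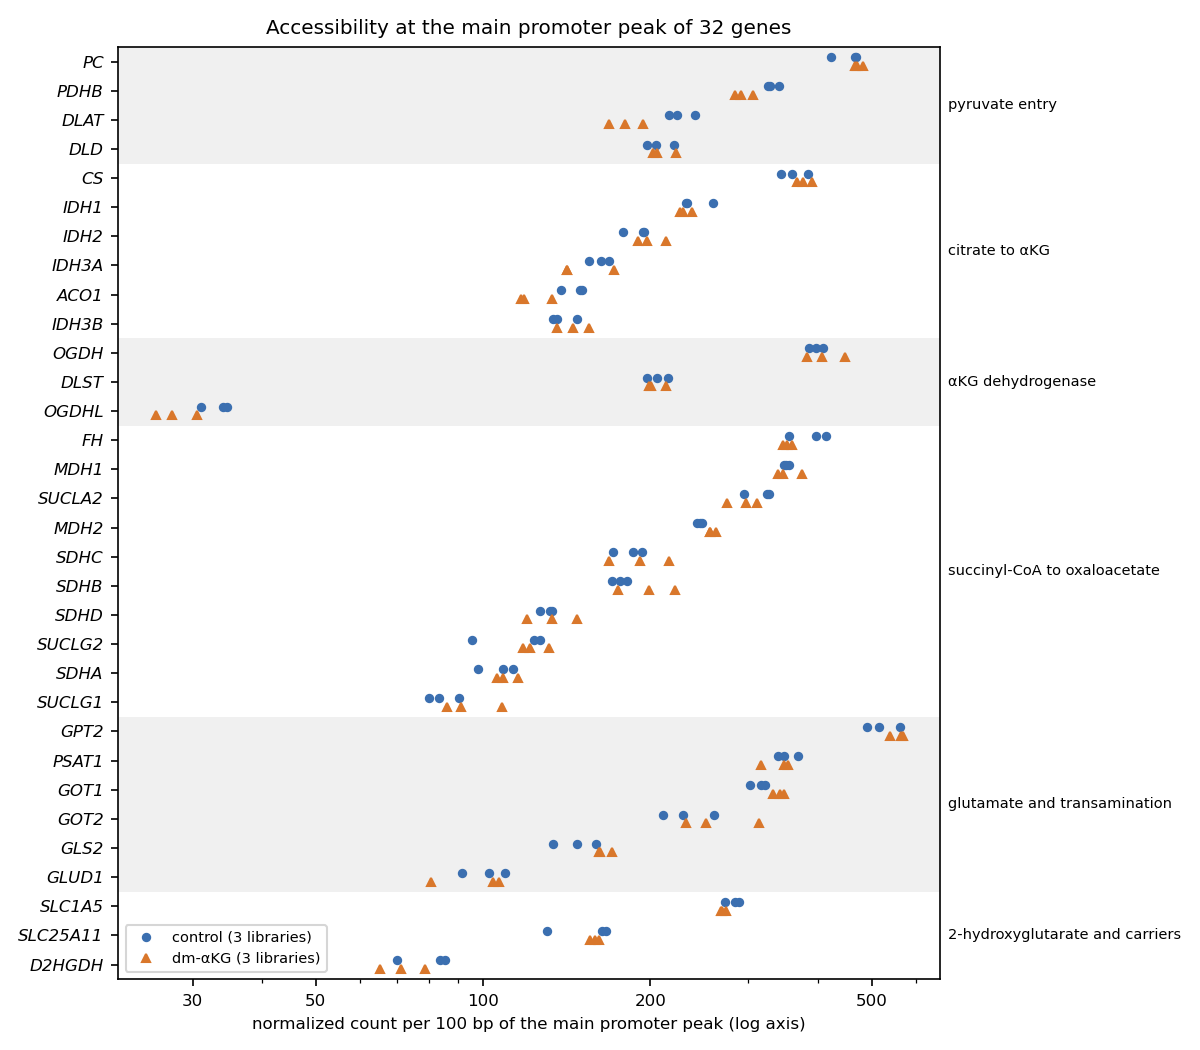
Normalized count per 100 bp (log axis) at the main promoter peak of each gene, with 3 control libraries as circles and 3 dm-αKG libraries as triangles, grouped by the step of the pathway. Levels run from about the 33.3 of OGDHL to the 522 of GPT2, and the points of the groups overlap at most genes.

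At the main promoter peaks, dm-αKG changed little. DLAT, the E2 subunit of pyruvate dehydrogenase, fell, and no gene passed in the higher direction. By edgeR's quasi-likelihood test with Benjamini-Hochberg adjustment over all 171517 peaks, 1 of the 32 passed an adjusted p below 0.05 in the lower direction, where 5.12% of the main promoter peaks of all protein-coding genes did, and 0 passed in the higher direction, where 8.53% of all did. Without adjustment 5 of the 32 (15.6%) had a p below 0.05, beside 26.2% of all main promoter peaks. DESeq2 also called 0 higher, and limma-voom called 1, GOT1. With scaling factors taken from promoter peaks only, 4 passed lower (ACO1, DLAT, FH and PDHB). The 32 log2 fold changes ran from -0.31 to 0.17 with a median of 0.04, beside a median of 0.05 over all main promoter peaks, and with the promoter-peak factors these medians were -0.04 and -0.03. For 31 of the 32 genes the 95% confidence interval of the log2 fold change lay within 0.5 of 0, a 1.41-fold change, and the exception was OGDHL, with an interval from -0.61 to 0.08. The 3 dm-αKG libraries did not overlap the 3 controls at 7 of the 32 genes (DLAT, ACO1, PDHB and OGDHL below, and GOT1, GLS2 and MDH2 above), a share of 21.9% beside 29.1% of all main promoter peaks. With 3 libraries against 3, an exact permutation test of 1 peak cannot give a p below 0.1, so each call rests on the model over all peaks. A lower count may come from fewer cells with the site open or from less opening per cell, which these bulk libraries cannot tell apart.

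**Figure D2:**
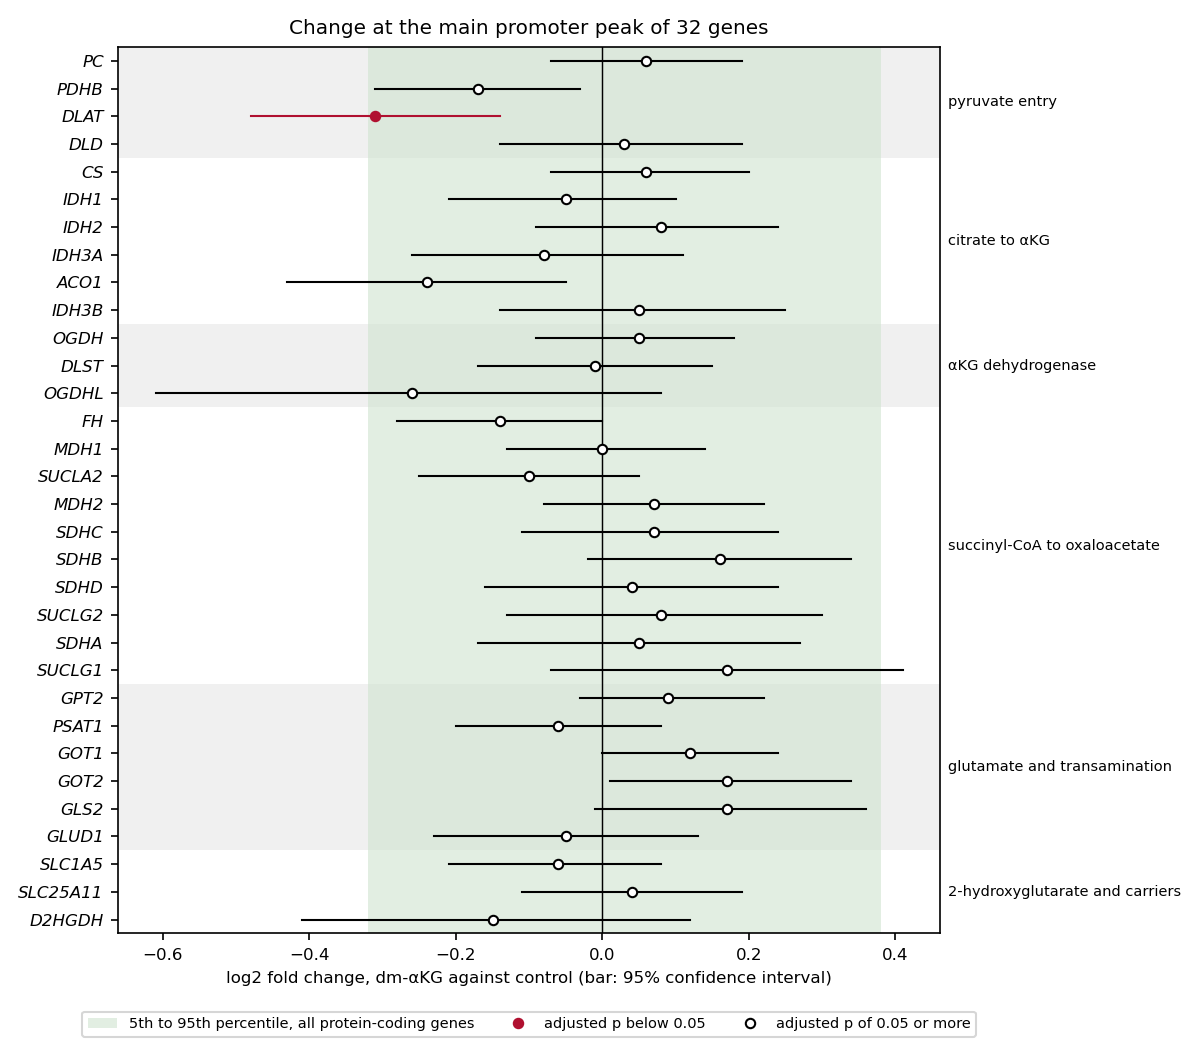
Log2 fold change of dm-αKG against control at the main promoter peak of each gene, with 95% confidence intervals, over a shaded band from the 5th to the 95th percentile of all protein-coding genes (-0.32 to 0.38). All 32 points lie inside the band, and DLAT at -0.31 is the only filled point.

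Genes of pyruvate entry held the 1 main promoter peak that fell. The main promoter peak of DLAT lay upstream of its transcript start, with its centre 344 bp away, at chr11:112024961-112025167 on hg38. It held 463, 447 and 497 normalized counts in control and 402, 372 and 349 in dm-αKG. All dm-αKG libraries were below all controls, and the log2 fold change was -0.31 (SE 0.08, adjusted p = 0.00493). A smaller peak at chr11:112025778-112025977, inside an intron and 470 bp past the start, moved the other way, from 11.6, 27.9 and 32.8 to 56.7, 46.2 and 34.4, with a log2 fold change of 0.99 (SE 0.29, adjusted p = 0.00994). It did not pass without control library 1 (0.65, adjusted p = 0.151), without dm-αKG library 1 (0.78, adjusted p = 0.147) or in DESeq2 (0.97, adjusted p = 0.0702). The 2 DLAT peaks between them had log2 fold changes of -0.09 and 0.11 and did not pass. The sequence of the peak that fell is shown since it was the only main promoter peak to pass. It is read 5′ to 3′ on the plus strand, with a match to the word GGGCGG or its reverse, the core of SP and KLF factor sites, in capitals.
DLAT main promoter peak: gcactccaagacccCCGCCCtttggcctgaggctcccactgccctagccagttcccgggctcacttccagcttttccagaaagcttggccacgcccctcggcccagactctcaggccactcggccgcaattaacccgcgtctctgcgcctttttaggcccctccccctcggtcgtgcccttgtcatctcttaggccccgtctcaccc

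PDHB, the E1 beta subunit of the same complex, was close to the threshold. Its main promoter peak held 703, 670 and 675 normalized counts in control and 629, 599 and 585 in dm-αKG, without overlap, for a log2 fold change of -0.17 (SE 0.07, adjusted p = 0.0864). DLD, the E3 subunit that pyruvate and αKG dehydrogenase share, had a log2 fold change of 0.03 (95% confidence interval -0.14 to 0.19). PC, which makes oxaloacetate from pyruvate, had one of 0.06 (95% confidence interval -0.07 to 0.19) at its main promoter peak. Among its 12 gene-body peaks 1 passed lower, at -0.38, and 2 passed higher, at 0.36 and 0.53. Of all peaks inside protein-coding genes and more than 1 kb from any transcript start, 13.2% passed lower and 6.85% higher.

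Between citrate and αKG, IDH2 had most of its changes outside its main promoter peak. IDH2 is the mitochondrial NADP-dependent isocitrate dehydrogenase, which can make αKG or run in reverse. The gene had 9 peaks, of which 5 passed, all lower, where 10.5% of all peaks in the table passed lower. IDH2 is given at length because these peaks passed, so the count is no separate support for a change at the gene. Its main promoter peak held 387, 421 and 423 normalized counts in control and 412, 463 and 427 in dm-αKG, overlapping, with a log2 fold change of 0.08 (95% confidence interval -0.09 to 0.24). Further upstream, the peak at chr15:90102784-90102984, which is also within 1 kb of the start of the divergent transcript IDH2-DT, went from 121, 165 and 171 to 108, 96.2 and 108. That was a log2 fold change of -0.54 (SE 0.15, adjusted p = 0.00664), which did not pass without control library 2 (-0.46, adjusted p = 0.0666) or without control library 3 (-0.46, adjusted p = 0.054).

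Inside IDH2, the strongest gene-body peak lay in an intron, 4161 bp past the canonical start, at chr15:90098200-90098413. It held 381, 416 and 374 normalized counts in control and 276, 307 and 292 in dm-αKG, so every dm-αKG library was below every control. The log2 fold change was -0.43 (SE 0.09, adjusted p = 2.49e-04). Further along, 6713 bp past the start, an intronic peak fell from 78.7, 90.4 and 79.0 to 54.5, 41.1 and 40.4 (log2 fold change -0.83, SE 0.21, adjusted p = 0.00182). This peak was in the control list of peaks and not in the dm-αKG list. It thus entered the table through the group where it is high, and its fall is in part built in. A pair of neighbouring peaks lay deeper in the gene. The stronger of them, 14555 bp past the start, fell from 166, 133 and 142 to 76.0, 108 and 108 (-0.64, SE 0.16, adjusted p = 0.0016), and did not pass without dm-αKG library 1 (-0.45, adjusted p = 0.0809). The other, at 14861 bp, passed at -0.53 (adjusted p = 0.0438), with -0.28 (adjusted p = 0.451) without control library 1, -0.41 (adjusted p = 0.242) without dm-αKG library 1, -0.60 (adjusted p = 0.0592) without dm-αKG library 2, and it did not pass in DESeq2 (adjusted p = 0.155) or with scaling by total counts (-0.52, adjusted p = 0.0516). Neighbouring peaks of this kind come from 1 wider peak of the authors' lists with several summits and can share DNA fragments, so they are not independent.

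Stretches of 3 IDH2 peaks are shown so that the peak that did not pass can be set beside those that did. They are on hg38 and read 5′ to 3′ along the gene, on the minus strand, without bases of annotated exons. The main promoter peak (chr15:90102478-90102648) has 83.0% GC and holds, in capitals, a CCAAT word of NFY (CCAATGG) that overlaps a GGGCGG word, and a second SP and KLF word in reverse. The upstream peak (chr15:90102784-90102984, 59.2% GC) and the intronic peak (chr15:90098200-90098413, 56.5% GC) hold none of the 10 motifs searched, which says only that these letters are absent from these windows.
IDH2 main promoter peak: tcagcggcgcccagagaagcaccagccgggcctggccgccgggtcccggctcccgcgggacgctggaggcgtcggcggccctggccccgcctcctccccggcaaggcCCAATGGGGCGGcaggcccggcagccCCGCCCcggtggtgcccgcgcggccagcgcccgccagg
IDH2 upstream peak: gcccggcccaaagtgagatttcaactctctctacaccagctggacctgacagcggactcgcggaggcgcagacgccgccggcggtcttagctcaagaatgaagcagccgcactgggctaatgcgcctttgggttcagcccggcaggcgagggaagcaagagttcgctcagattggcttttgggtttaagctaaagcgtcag
IDH2 intronic peak: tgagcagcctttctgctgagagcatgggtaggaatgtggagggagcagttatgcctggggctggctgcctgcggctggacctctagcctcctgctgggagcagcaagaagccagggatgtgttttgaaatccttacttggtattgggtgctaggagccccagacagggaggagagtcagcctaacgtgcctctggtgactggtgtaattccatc

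The other enzymes of this stretch had main promoter peaks that did not pass. ACO1, the cytosolic aconitase and iron regulatory protein, came closest, with 333, 330 and 305 normalized counts in control and 294, 258 and 262 in dm-αKG. Its groups did not overlap, and the log2 fold change was -0.24 (SE 0.10, adjusted p = 0.0715). CS, citrate synthase, IDH3A and IDH3B, subunits of the NAD-dependent isocitrate dehydrogenase, and IDH1, the cytosolic NADP-dependent enzyme, lay between -0.08 and 0.06. The main promoter peak of IDH1 had its centre 11157 bp upstream of the canonical start, near another start of the gene and within 1 kb of a start of PIKFYVE, and the strongest peak at the canonical start had a log2 fold change of 0.01. Smaller promoter peaks passed at IDH1 (-0.24) and IDH3B (0.81).

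αKG dehydrogenase, which oxidizes αKG to succinyl-CoA, showed no main promoter peak that passed. Log2 fold changes were 0.05 (95% confidence interval -0.09 to 0.18) for OGDH, the E1 subunit, and -0.01 (95% confidence interval -0.17 to 0.15) for DLST, the E2 subunit. OGDHL held 98.4, 100 and 89.9 normalized counts in control and 79.6, 74.4 and 88.3 in dm-αKG, a difference of -0.26 (SE 0.17, adjusted p = 0.31). At DLST a second promoter peak, in an intron 4368 bp past the canonical start and near the start of a shorter transcript, fell from 128, 173 and 176 to 114, 94.9 and 112. This change was -0.55 on the log2 scale (SE 0.15, adjusted p = 0.00418), and it did not pass without control library 2 (-0.48, adjusted p = 0.0514). Gene-body peaks of OGDH and DLST passed higher, at 0.72 and 0.85 on the log2 scale. Both were only in the dm-αKG list of peaks and so entered the table through the group where they are high. Their rise is thus in part built in. The OGDH peak did not pass without control library 3, dm-αKG library 2 or dm-αKG library 3. The DLST peak did not pass without control library 1 or dm-αKG library 1.

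From succinyl-CoA to oxaloacetate, 10 genes had main promoter peaks between -0.14 (FH, fumarate hydratase) and 0.17 (SUCLG1, the alpha subunit of succinyl-CoA synthetase), and none of them passed in edgeR, DESeq2 or limma-voom, whereas FH passed with the promoter-peak factors. The 4 subunits of succinate dehydrogenase, which is also complex II of the respiratory chain, had log2 fold changes of 0.05 for SDHA, 0.16 for SDHB, 0.07 for SDHC and 0.04 for SDHD. The malate dehydrogenases MDH1, cytosolic, and MDH2, mitochondrial, had 0.00 (95% confidence interval -0.13 to 0.14) and 0.07 (95% confidence interval -0.08 to 0.22). With scaling factors from promoter peaks only, SDHA, SDHC, SDHD, MDH1 and MDH2 turned below 0, so no direction can be read for them. A weak peak 531 bp upstream of SDHD, shared with the divergent gene TIMM8B, rose from 25.9, 13.2 and 23.1 to 42.3, 41.1 and 44.9. Its log2 fold change of 1.06 (SE 0.30, adjusted p = 0.0074) did not pass without control library 2 (0.79, adjusted p = 0.0912). A weak peak near an internal start of SDHA, 32277 bp past the canonical start, passed at 0.98, and since SDHA has near-identical copies elsewhere in the genome, its counts are uncertain.

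SUCLA2, the ATP-forming beta subunit of succinyl-CoA synthetase, had the most peaks of any member, 22. All 17 of its gene-body peaks lay outside the canonical transcript, in the span that GENCODE gives to longer transcripts of the gene, so their tie to SUCLA2 rests on that annotation alone. Of the 17, 4 passed lower and 2 higher, where 13.2% and 6.85% of all peaks inside protein-coding genes and away from any start did. The strongest, 184264 bp past the canonical start at chr13:47816905-47817113, fell from 262, 312 and 339 normalized counts in control to 196, 169 and 190 in dm-αKG. This was the smallest adjusted p among the 171 peaks (log2 fold change -0.70, SE 0.11, adjusted p = 7.4e-07). Another, 189871 bp past the start, fell from 140, 147 and 145 to 94.7, 92.4 and 64.4 (-0.75, SE 0.16, adjusted p = 2.29e-04). A weak exonic peak at 203001 bp rose from 5.37, 15.6 and 21.9 to 31.6, 41.1 and 47.9, with a log2 fold change of 1.50 (SE 0.35, adjusted p = 8.17e-04). No dm-αKG library overlapped a control at these 3 peaks. The main promoter peak of SUCLA2, at a start other than the canonical one, had a log2 fold change of -0.10 (95% confidence interval -0.25 to 0.05), and the strongest peak at the canonical start had -0.08. The sequence of the strongest intronic peak is shown 5′ to 3′ on the minus strand of hg38. It holds none of the 10 motifs.
SUCLA2 intronic peak: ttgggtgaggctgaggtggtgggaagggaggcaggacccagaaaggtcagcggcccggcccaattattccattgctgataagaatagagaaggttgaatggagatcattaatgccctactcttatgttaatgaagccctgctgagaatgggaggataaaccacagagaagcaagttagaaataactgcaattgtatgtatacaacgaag

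**Figure D3:**
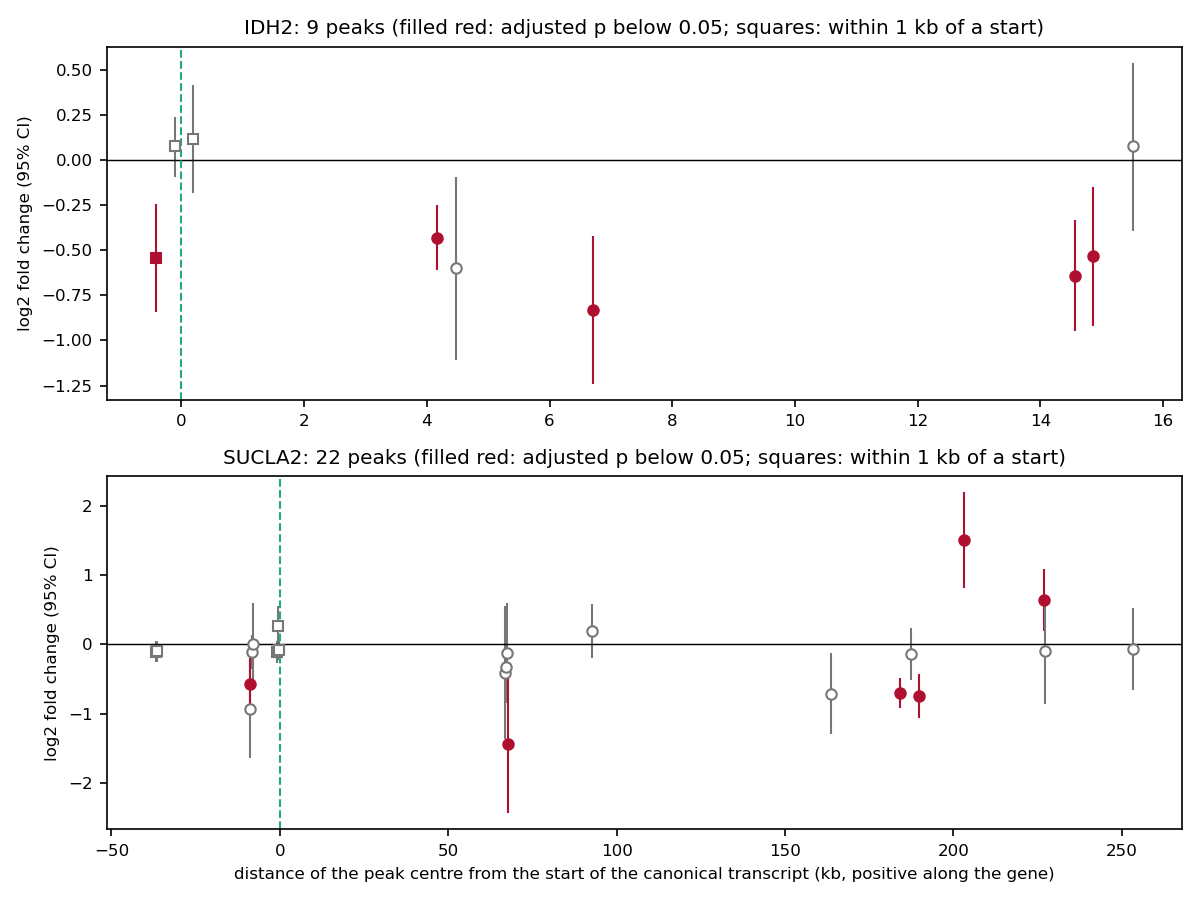
Log2 fold change with 95% confidence interval at each peak of IDH2 (9 peaks) and SUCLA2 (22 peaks) against its distance in kb from the canonical transcript start (dashed line), with squares for promoter peaks and filled red for an adjusted p below 0.05. At IDH2 the peaks that passed lie upstream and in introns around a main promoter peak at 0.08, and at SUCLA2 they lie between -8728 and 226968 bp from the start, in both directions of change.

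Glutamate enzymes and transaminases showed main promoter peaks from -0.06 to 0.17, none of which passed in edgeR. GOT2, the mitochondrial aspartate transaminase, held 524, 423 and 460 normalized counts in control and 506, 466 and 629 in dm-αKG. These overlapped, with a log2 fold change of 0.17 (SE 0.08, adjusted p = 0.144). Its cytosolic counterpart GOT1 held 1173, 1101 and 1154 against 1248, 1215 and 1268, without overlap, for a log2 fold change of 0.12 (SE 0.06, adjusted p = 0.153). The only gene-body peak of GOT1 went the other way. It lay in an intron 5333 bp past the start and fell from 81.4, 88.0 and 83.8 to 50.2, 38.5 and 55.4 (log2 fold change -0.81, SE 0.20, adjusted p = 0.00208).

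GLUD1, glutamate dehydrogenase, also had an intronic peak that fell. At chr10:87082357-87082593, 12368 bp past the canonical start, it held 231, 270 and 230 normalized counts in control and 166, 167 and 168 in dm-αKG. The log2 fold change was -0.55 (SE 0.12, adjusted p = 2.6e-04), whereas the main promoter peak, shared with the divergent gene SHLD2, had -0.05 (95% confidence interval -0.23 to 0.13). A weaker promoter peak of GLUD1 passed at 0.43, and the gene has related copies in the genome, so that its counts are uncertain. GLS2, the liver-type glutaminase, had 0.17 at its main promoter peak, and a second promoter peak passed at 0.30. GPT2 and PSAT1, the phosphoserine transaminase of serine synthesis, had 0.09 and -0.06 at their main promoter peaks, and a GPT2 peak near an internal start, 40436 bp past the canonical one, passed at -0.43.

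The GLUD1 and GOT1 stretches are shown for contrast, an intronic peak that fell and a strong promoter peak with several motif words. Both are on hg38 and read 5′ to 3′ on the minus strand without exon bases. The GOT1 stretch (chr10:99430625-99430914) is 57.6% GC, and its capitals mark, in order, an NFY word (CCAATCA), an ATF4 word (TGATGNAA, read in reverse as TTGCATCA), an NFY word in reverse and an SP and KLF word in reverse. The GLUD1 stretch is 43.5% GC with no match.
GLUD1 intronic peak: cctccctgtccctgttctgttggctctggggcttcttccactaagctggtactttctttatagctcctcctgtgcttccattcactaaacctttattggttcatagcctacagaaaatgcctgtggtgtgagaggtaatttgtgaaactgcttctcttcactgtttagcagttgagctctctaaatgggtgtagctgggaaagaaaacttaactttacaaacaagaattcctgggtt
GOT1 main promoter peak: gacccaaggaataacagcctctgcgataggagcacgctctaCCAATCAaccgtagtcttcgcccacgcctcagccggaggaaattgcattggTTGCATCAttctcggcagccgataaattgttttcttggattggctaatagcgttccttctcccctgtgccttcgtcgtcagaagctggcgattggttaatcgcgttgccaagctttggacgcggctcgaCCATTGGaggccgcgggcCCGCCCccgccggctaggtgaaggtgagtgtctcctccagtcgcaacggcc

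D2HGDH, which oxidizes D-2-hydroxyglutarate to αKG, SLC25A11, the mitochondrial carrier that exchanges αKG for malate, and SLC1A5, a glutamine transporter of the plasma membrane, had log2 fold changes of -0.15, 0.04 and -0.06 at their main promoter peaks. For D2HGDH, the weakest of these, the 95% confidence interval ran from -0.41 to 0.12. SLC25A11 shared its promoter with RNF167. The main promoter peak of SLC1A5 lay near an internal start, with its centre 3638 bp past the canonical one, and the strongest peak at the canonical start had -0.08. Of their 9 promoter and 5 gene-body peaks 1 passed, a weak promoter peak of SLC25A11 at 0.67.

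**Figure D4:**
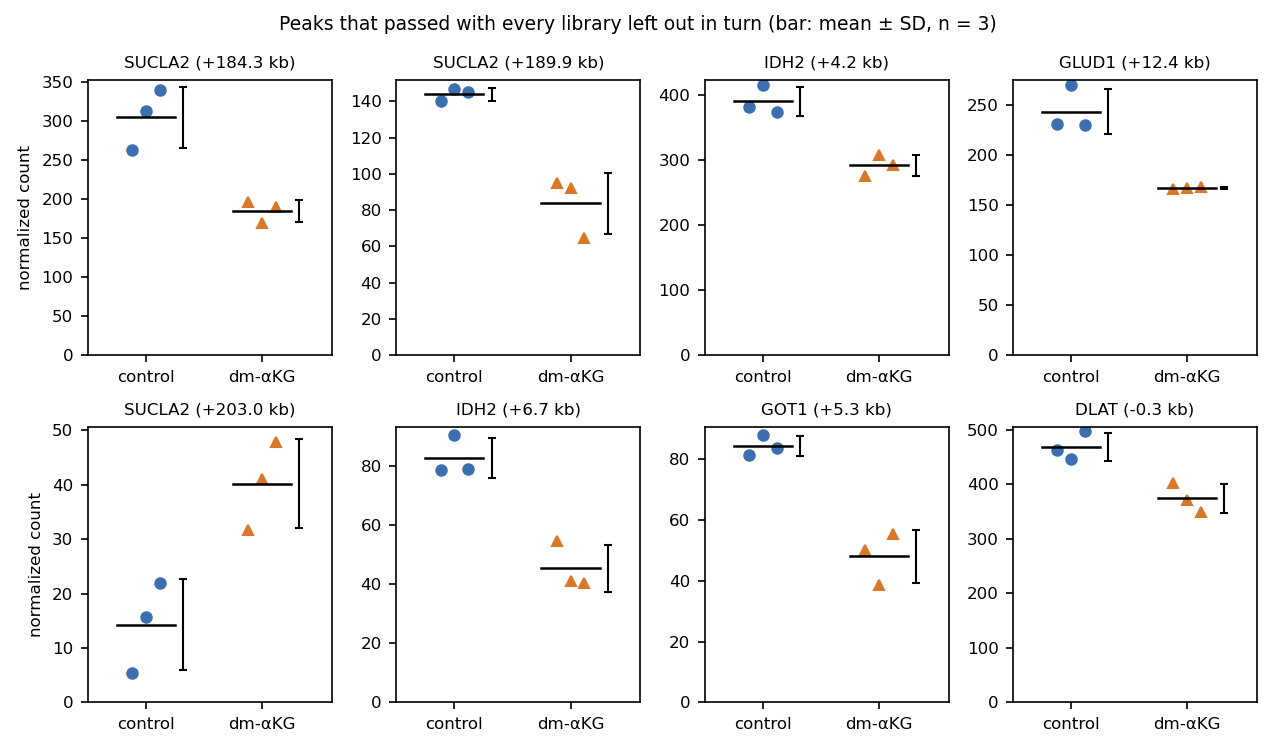
Normalized counts in each library at the 8 member peaks that passed in the full comparison and with every library left out in turn, with the mean and SD of 3 libraries and the distance from the canonical start in each title. At all 8 the 3 dm-αKG libraries lie apart from the 3 controls, below them at 7 and above them at 1, the weak exonic SUCLA2 peak. Since the peaks were picked for passing on these same libraries, this separation follows largely from the choice.

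Counts over all member peaks were read against the same counts over the whole table. Of the 103 promoter peaks 5 (4.85%) passed lower and 7 (6.8%) passed higher, beside 4.80% and 9.78% of all 61874 promoter peaks. Their median log2 fold change was 0.05, beside 0.09 for all promoter peaks. Of the 68 gene-body peaks 11 (16.2%) passed lower and 6 (8.82%) passed higher, beside 13.2% and 6.85% of the 54147 peaks inside protein-coding genes. Their median was -0.10, beside -0.04. The 54147 leave out peaks within 1 kb of a start of any gene, whereas member gene-body peaks were only kept away from starts of their own gene. Of the 11 that fell, 4 were in IDH2 and 4 in the SUCLA2 span, so the count rests on few genes. The groups did not overlap at 25 of the 68 gene-body peaks, 36.8% beside 34.3% of all. Over all 171 peaks 16 passed lower and 13 higher, where 10.5% and 7.43% of the whole table did.

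Under the stricter limit of the study (adjusted p below 0.01, with a log2 fold change beyond 1 in size) 2 member peaks were called higher, the SUCLA2 exonic peak and the peak upstream of SDHD, and 0 were called lower. DESeq2 called 1 higher and limma-voom 3, and neither called any lower. The same limit called 0.782% of all peaks higher and 1.96% lower. Without adjustment 51 of the 171 (29.8%) had a p below 0.05, beside 30.7% of all peaks.

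Peaks that rose had lower control counts than peaks that fell, but the control counts are part of the contrast that sorted them. A peak found in only 1 list also entered the table through the group where it is high. The difference is thus in part built in, and it is not shown to be a trait of these genes. In control the 13 that rose had a median of 33.2 normalized counts and the 16 that fell had a median of 156, and 9 of the 13 but 1 of the 16 had a control mean below 60. Of the 13 that rose, 5 were in the dm-αKG list of peaks and not in the control list. Of the 16 that fell, 1 was in the control list only. Beside the 12 passed peaks given above in full and the main promoter peak of DLAT, 16 peaks passed, with adjusted p between 0.0104 and 0.0496. Each of these 16 lost its pass without at least 1 library, 11 of them without control library 1, 10 without control library 2, 11 without control library 3, and 11, 8 and 4 without dm-αKG libraries 1, 2 and 3. As limits, 8 of the 29 passed peaks passed with each library left out in turn, and 14 of the 29 passed in DESeq2, which gave no adjusted p for 1 of them. With scaling factors from promoter peaks, 6 of the 29 did not pass.

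**Figure D5:**
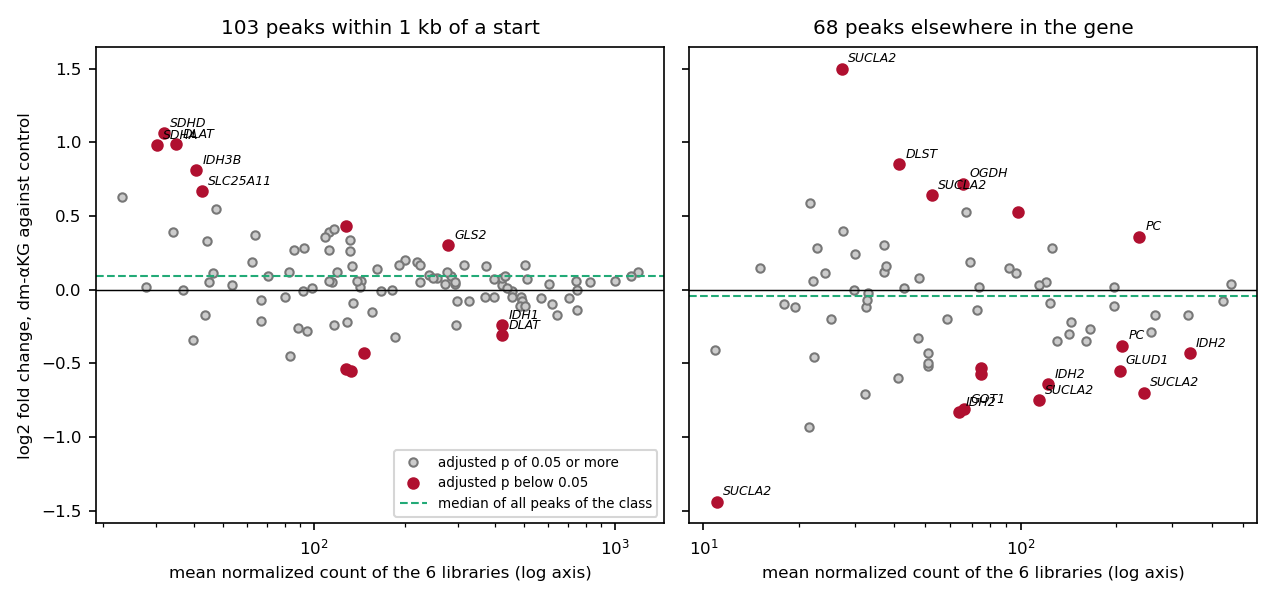
Log2 fold change against the mean normalized count of the 6 libraries (log axis) for the 103 promoter peaks and the 68 gene-body peaks, with peaks of an adjusted p below 0.05 filled in red and a dashed line at the median of all peaks of the class (0.09 and -0.04). Most of the red points above 0 lie at low counts, and most of those below 0 at higher counts.

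Among features that did not enter the choice of genes, the main promoter peaks were GC-rich like those of other genes. Median GC content in the central 200 bp was 68.5%, beside 68.0% for main promoter peaks of all protein-coding genes, and the ratio of observed to expected CpG was 0.843 beside 0.82. Words of 10 motifs were searched on both strands. An NFY word (CCAATCA or CCAATGG) was found in 9 of the 32, 28.1% beside 14.3% of all main promoter peaks. The genes were CS, FH, GLS2, GOT1, IDH2, MDH1, OGDH, PDHB and PSAT1. An ATF4 word (TGATGNAA) was found in 3, GOT1, SLC1A5 and SLC25A11, 9.38% beside 0.825%. ETS words (CCGGAAGT) were in 4 (12.5% beside 5.58%), YY1 words (AAGATGGC) in 3 (9.38% beside 2.42%), NRF1 words (GCGCATGC) in 2 (6.25% beside 3.45%) and SP and KLF words (GGGCGG) in 22 (68.8% beside 65.5%). CREB (TGACGTCA), E-box (CACGTG), AP-1 (TGANTCA) and NRF2 (TGACNNNGC) words were in 1, 2, 1 and 3, beside 2.08%, 6.1%, 2.61% and 11.0% of all. These are matches of letters with no test, and the words can overlap each other. The main promoter peak also lay within 1 kb of a start of another protein-coding gene at 9 of the 32 genes (28.1%). Of the 14542 main promoter peaks of all protein-coding genes, 2052 (14.1%) lay near 2 or more genes. That share counts a peak once even where several genes share it, so the 2 shares are in unlike units and cannot be compared.

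Around the pathway, PCK2, the mitochondrial phosphoenolpyruvate carboxykinase, which draws oxaloacetate out of the cycle, fell at its main promoter peak. It held 738, 756 and 747 normalized counts in control and 546, 550 and 524 in dm-αKG, at chr14:24094045-24094247 within 1 kb of a start of NRL. Its log2 fold change was -0.47 (SE 0.07, adjusted p = 4.8e-07). Of 53 listed genes next to the pathway 51 had a promoter peak, and 2 passed lower and 3 higher. Over the main promoter peaks of all protein-coding genes 5.12% passed lower and 8.53% higher, so neither count is above the general share. The other that fell was ALDH18A1, which turns glutamate towards proline (-0.33, adjusted p = 0.0203). Those that rose were ALDH4A1, which makes glutamate from proline (0.32, adjusted p = 0.00108), SLC25A22, a mitochondrial glutamate carrier (0.35, adjusted p = 0.00944), and SLC25A1, the citrate carrier (0.27, adjusted p = 0.0193). PCK2 and ALDH4A1 passed with each library left out in turn. ALDH18A1 did not pass without control library 1 (adjusted p = 0.0573), control library 2 (adjusted p = 0.0879) or dm-αKG library 3 (adjusted p = 0.0933). SLC25A22 did not pass without control library 1 (0.23, adjusted p = 0.189) or dm-αKG library 1 (0.28, adjusted p = 0.121), and SLC25A1 did not pass without control library 1 (adjusted p = 0.0593), control library 3 (adjusted p = 0.0764), dm-αKG library 1 (adjusted p = 0.0712) or dm-αKG library 2 (adjusted p = 0.0908). In DESeq2 these 3 had adjusted p of 0.0702, 0.0622 and 0.059. With scaling factors from promoter peaks, SLC25A22 (0.27, adjusted p = 0.0596) and SLC25A1 (0.19, adjusted p = 0.13) did not pass either. The 46 genes that did not pass lay between -0.28 and 0.33.

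Libraries held from 13025674 to 26828622 reads in peaks, and main promoter peaks of the members had raw counts from 58 to 1741. Summed over the 32 main promoter peaks, normalized counts were 16506, 16190 and 16114 in control and 16271, 16570 and 16288 in dm-αKG, overlapping. As a check of the cell type, 8 of 9 naive pluripotency markers had a promoter peak, the exception being DPPA3, with main peaks at 87.4 to 258 normalized counts per 100 bp in control. Promoter peaks were also present for 5 of 5 trophectoderm, 5 of 5 primed, 4 of 4 primitive endoderm and 3 of 3 mesoderm markers, at 51.8 to 231 per 100 bp, so that accessibility at these promoters did not set the cell types apart. Over the 25 markers with a peak, 3 passed lower and 1 higher, where 5.12% and 8.53% of all main promoter peaks did. The 3 were the naive marker KLF17 (-0.39, adjusted p = 0.001 in edgeR) and the primed markers DUSP6 (-0.30, adjusted p = 0.00928) and SFRP2 (-0.42, adjusted p = 0.0267). The 1 that rose was GATA6 of the primitive endoderm (0.31, adjusted p = 0.029). The markers that passed lower thus came from both the naive and the primed list. The 21 markers that did not pass lay between -0.28 and 0.26, with values on both sides of 0 within each of these lists. The part of a shift in cell state in the member changes was not tested.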

How the data were processed

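ATAC-seq libraries of nES cells, 3 from cells given dm-αKG (4 mM, 24 h) and 3 from controls, were grouped by their labels. Members and lists were chosen with earlier results of these data known. Per the paper's methods, the authors trimmed the reads, aligned them to hg38 with Bowtie 2, filtered them, called peaks with MACS2 in each replicate and kept reproducible peaks by the irreproducible discovery rate, in 1 pipeline run per treatment (tools in the submitters' notes include bcl2fastq 2.20.0.422 and bedtools 2.28.0). They cut peaks to 200 bp around the summit, merged both lists and deposited raw counts per peak and library. The 2 deposited peak lists hold a score, a fold enrichment as a ratio, and q-values as −log10 for each peak. The score was not used, and lists that pool replicates allow no replicate comparison. Merging with overlapping summits gave member peaks of 200 to 420 bp, so levels were divided by width where genes were compared.

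From the counts, edgeR 4.0.16 in R 4.3.3 (TMM factors, quasi-likelihood fit, treatment as the only term, all 171517 peaks) gave log2 fold changes and Benjamini-Hochberg adjusted p. Passed means an adjusted p below 0.05. Standard errors came from the F statistic and 95% intervals from its degrees of freedom. Normalized counts are counts at the mean effective library size of the 6 libraries. Genes and starts were from GENCODE 44, and exact positions from hg38. Alternatives were DESeq2 1.42.0, limma-voom 3.58.1, other scalings and filters, windows, a replicate block and leaving out each library. A simulation of this comparison over 171517 peaks gave 200 of them a change, with a median log2 size of 1.48 in edgeR. The share found was 98.5% by edgeR, which made 8 false calls, and 86.5% by DESeq2, which made 5. Most changes at member peaks were smaller than that size. The shares therefore do not measure how often such smaller changes are missed, and they say nothing about peaks that did not pass. Every member gene was named, passed peaks beyond main promoter peaks in order of adjusted p, at most 12 in full. Libraries were not paired by replicate number in the main fit. Same-numbered deviations correlated at -0.016, -0.001 and 0.013, so no shared deviation was seen. These values cannot tell whether same-numbered libraries were prepared together. Some listed neighbour genes are counted without being named.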

Additional observations from a re-analysis of the deposited data

How the results depend on the processing

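The change at the DLAT main promoter peak passed in all 14 other fits, with log2 fold changes from -0.39 to -0.27. The median of member promoter peaks was 0.05, between -0.03 and 0.08 elsewhere, and all 3 settings of the list overlap left 96 of 103 promoter peaks in both lists. Counts of passed peaks moved more. In order of promoter peaks lower and higher and gene-body peaks lower and higher, they were 5, 7, 11 and 6, against 3, 1, 7 and 3 in DESeq2, 10, 4, 18 and 3 with scaling from promoter peaks, and 3, 2, 7 and 1 at an adjusted p below 0.01. Leaving out 1 library gave 1 to 5, 2 to 9, 7 to 14 and 3 to 4, and for member peaks called 0 to 1 lower and 1 to 3 higher. Promoter peaks passing lower were 3 within 500 bp and 3 for starts of protein-coding transcripts, and gene-body peaks passing lower were 7 inside canonical transcripts (chosen after seeing the data). Member peaks called higher were 1 in DESeq2, 1 with promoter-peak scaling and 1 with at least 10 counts in every library. Over all peaks 18047 passed lower and 12743 higher, against 11394 and 6267 in DESeq2 and 7656 higher with promoter-peak scaling. Leaving out 1 library gave 12196 to 18744 lower and 7808 to 13082 higher, and peaks called higher, 1342, were 793 in DESeq2 and 1043 to 1462 without 1 library. With the replicate block, counts were 5, 6, 12 and 6, and same-numbered libraries showed no shared deviation.

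Main promoter peaks near 0 changed sign. With promoter-peak scaling values were -0.02 for CS, PC and SDHC, -0.05 for DLD, -0.0033 for IDH2, -0.03 for IDH3B and OGDH, -0.08 for MDH1, -0.01 for MDH2, and -0.04 for SDHA, SDHD and SLC25A11. DLST was 0.00043 with loess offsets and 0.0031 with total counts, MDH1 was -0.01 with the count filter and with limma-voom, and IDH1 was 0.01 at its canonical start (chosen after seeing the data). Without 1 library the ranges were -0.02 to 0.07 for DLD, -0.04 to 0.03 for DLST, -0.11 to 0.05 for GLUD1, -0.04 to 0.04 for MDH1, -0.01 to 0.11 for OGDH, -0.09 to 0.00097 for PSAT1, -0.0047 to 0.1 for SDHA, -0.02 to 0.13 for SDHC, -0.03 to 0.09 for SDHD, -0.05 to 0.11 for SLC25A11 and -0.02 to 0.16 for SUCLG2. None of these passed under any of these settings, and the cause was not tested. Weak peaks, with fewer than 60 normalized counts in control, have wide intervals, and depth limits what can be seen there.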
